A study of Homo sapiens with 6 samples.

Results

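The genes described here are 31 transcriptional targets of the tumour suppressor p53, chosen by their gene symbols among the 28565 genes of the deposited tables. They were measured by RNA sequencing in HK-2, an immortalised cell line from the proximal tubule of the human kidney. All 6 libraries came from cells carrying a plasmid that overexpresses a long noncoding RNA (OE_LncR2 in the titles). The labels give 3 libraries at 0 h and 3 at 24 h of exposure to cisplatin, a platinum drug that crosslinks DNA. The treatment protocol describes lipid transfection of the plasmid and a 48 h incubation. Neither the plasmid's promoter nor the cisplatin dose is given in the sources used here. Cells with the control plasmid were not analysed here, so cisplatin and time after transfection cannot be told apart, and the effect of the lncRNA was not measured. The labels tie LncR2 to no row of the tables, so its own level was not analysed here.

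p53 is a transcription factor that is held at a low level by the ubiquitin ligase MDM2 and its partner MDM4. DNA damage activates kinases such as ATM, which free p53 from this control, and p53 then raises genes that stop the cell cycle, genes that restrain p53 itself, death receptors, and genes of apoptosis, metabolism and autophagy. In renal tubule cells, p53 is known as a mediator of cisplatin injury. HK-2 cells carry the E6 and E7 genes of a human papillomavirus, which immortalised them, and E6 directs p53 to degradation through the ligase UBE3A. Whether p53 protein was present or active was not measured.

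The libraries held between 5028881 and 5844246 counts each at 0 h, against 6022268 to 7248754 at 24 h. The renal and epithelial markers PAX8, KRT8 and KRT18 were at 410, 336 and 233 CPM at 0 h (counts scaled to TMM library size, means of 3 libraries). Among proximal tubule markers, AQP1, ANPEP, SLC34A1 and CUBN had 9, 1, 9 and 27 reads in all 6 libraries together. On the same list, GGT1 and CDH6 were at 53.8 and 62.1 CPM at 0 h, and LRP2 and SLC22A6 were not in the table. The other listed renal and epithelial markers, CDH2, KRT19 and PAX2, were at 186, 35.0 and 7.05 CPM at 0 h. Summed levels of the listed markers were at most 0.724 CPM for endothelium (4 of 5 in the table), 1.30 CPM for leukocytes (3 of 5) and 8.82 CPM for smooth muscle and fibroblasts (4 of 5). On the first principal component of all tested genes (39.3% of the variance), 0 h replicate 3 was at 1.28, nearer to the 24 h libraries (6.29 to 22.9) than to 0 h replicates 1 and 2 (-23.8 and -24.5). On the second (27.7%) it stood apart from all others, at -30.4 against -5.27 to 15.9. Counts and calls that change when it is left out are given both ways.

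Of the 31 members, 30 passed the filter on low counts and were tested, among 13389 genes in all. After 24 h of cisplatin, 2 members rose and 3 fell, called by edgeR (quasi-likelihood test) at an adjusted p under 0.05. SFN and PLK2, of growth arrest, rose, and MDM4, which restrains p53, DRAM1, of autophagy, and the secreted factor GDF15 fell. The best-known p53 targets, CDKN1A (p21) and MDM2, were not called. Of all genes tested, 0.866% rose, 2.08% fell and 2.94% did either, against 6.67% and 10.0% of the tested members. The median level of the 31 members at 0 h was 6.22 FPKM (fragments per kilobase, scaled to library size), against 4.23 over all genes tested. Single members lay on both sides, with CDKN1A above 95.1% of the genes tested and MDM2 above 41.6%. Genes with more reads have less counting error, and whether this bears on the share called was not tested. The median log2 fold change of the 30 members was 0.08, with 18 above 0 and 12 below, and that of all genes tested was close to 0 (-0.0016).

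An unadjusted p under 0.05 was reached by 12 of the 30 members, 7 higher and 5 lower. Of all genes tested, 18.1% did so, 8.22% higher and 9.93% lower. The 24 h libraries all lay above the 0 h libraries for 7 members and all below for 4, 11 together, against 10.9%, 11.7% and 22.6% of all genes tested. The 95% interval of the fold change lay within 2-fold either way for 29 of the 30 members, SFN being the exception, against 87.9% of all genes tested. In these bulk libraries, fewer cells expressing a gene and less RNA per cell cannot be told apart.

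**Figure D1:**
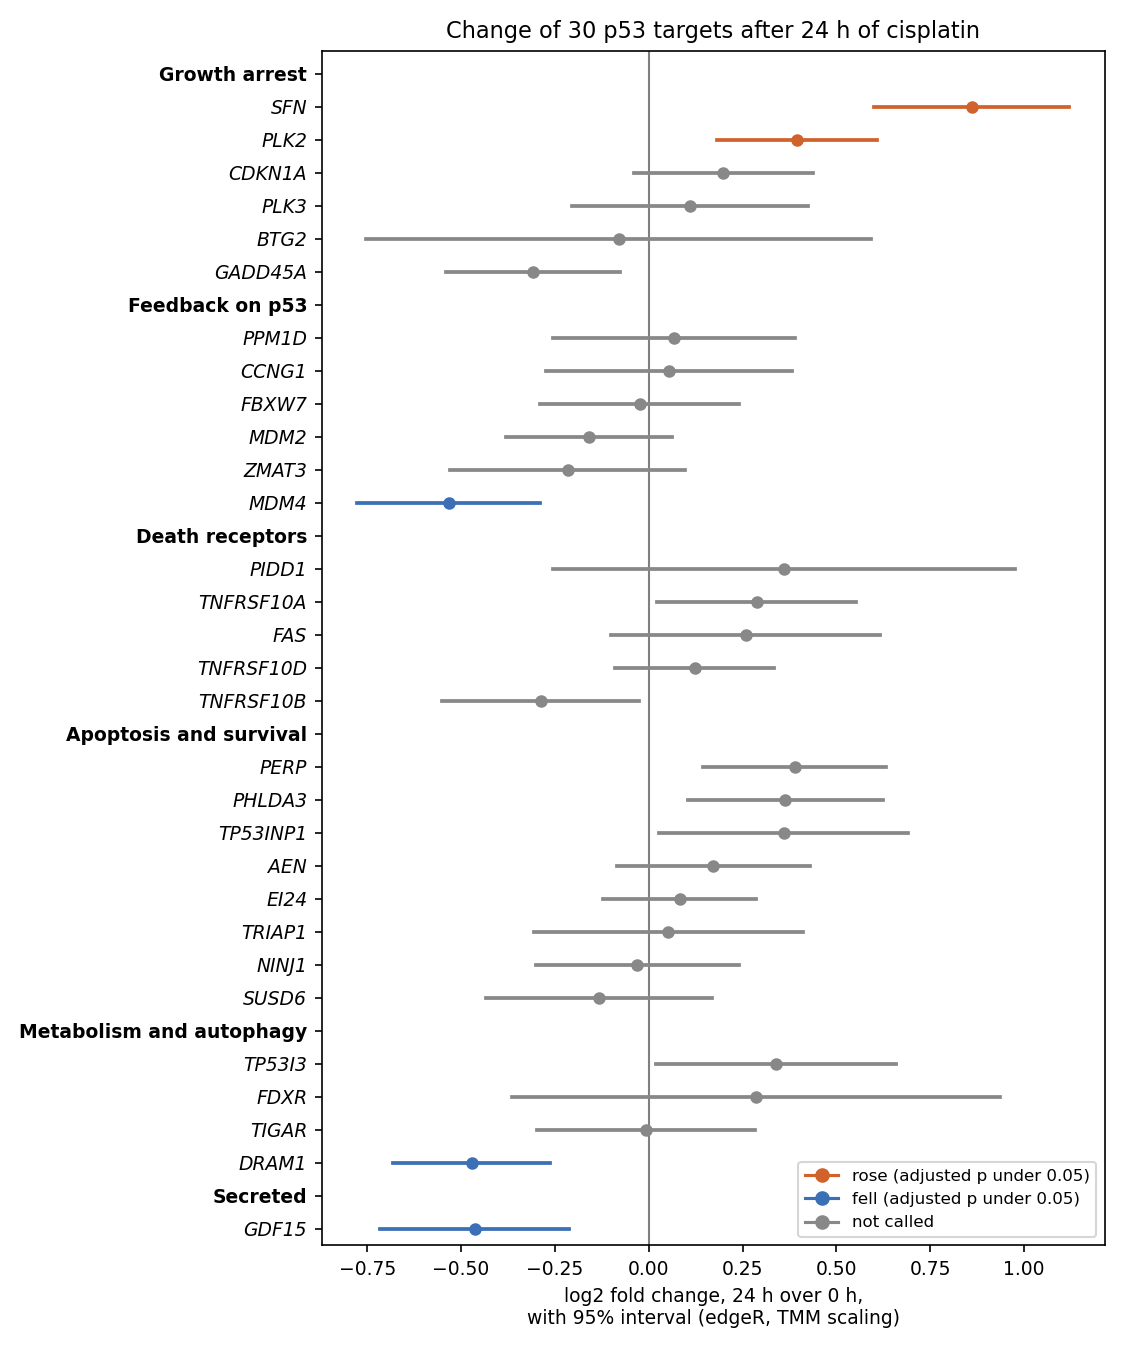
Log2 fold change of 24 h over 0 h for the 30 tested members, by role, with points for the edgeR estimate and bars for its 95% interval (n = 3 libraries per group). SFN at 0.86 lies farthest to the right and MDM4 at -0.53 farthest to the left, and the intervals of most others include 0.

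Of the 6 growth-arrest genes, 2 rose and 0 fell, and SFN had the largest change of all tested members. SFN encodes 14-3-3 sigma, which holds mitotic kinase complexes in the cytoplasm. It stood at 25.5, 26.7 and 29.8 CPM in 0 h replicates 1, 2 and 3 and at 45.9, 54.0 and 49.2 CPM in 24 h replicates 1, 2 and 3. Every 24 h library lay above every 0 h library. The log2 fold change was 0.86 ± 0.12 (SE, n = 3 each; 95% interval from 0.60 to 1.12, or 1.52-fold to 2.17-fold), with a Benjamini-Hochberg adjusted p of 8.74e-04 in edgeR. SFN was called under all 17 alternatives, with an adjusted p of at most 0.0150. In GENCODE 29 on GRCh38, SFN (ENSG00000175793) lies on chromosome 1 from 26863138 to 26864457, on the plus strand, and its exons overlap those of no other annotated gene.

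PLK2, a stress-induced polo-like kinase of the centriole cycle, had the highest level of the arrest genes. It was at 337, 342 and 379.9 CPM at 0 h and at 459.7, 443 and 492 CPM at 24 h, again without overlap. Its log2 fold change was 0.40 ± 0.10 (edgeR, Benjamini-Hochberg adjusted p = 0.0443). This call was kept only when 0 h replicate 3 was left out (0.46 ± 0.11), and with any other library left out the adjusted p ran from 0.113 to 0.228. Its relative PLK3, which acts in the G2 checkpoint, was at 0.11 ± 0.15 and was not called. The 2 kinases are paralogs, and reads in stretches they share may have been split or pooled.

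CDKN1A encodes the cyclin-dependent kinase inhibitor p21. It was at 233, 225 and 181 CPM at 0 h and at 241, 265 and 228 CPM at 24 h. The groups overlapped, with 0 h replicate 3 lowest of all 6 and 24 h replicate 3 below 0 h replicate 1. The log2 fold change of 0.20 ± 0.11 was not called (edgeR, Benjamini-Hochberg adjusted p = 0.371), and its 95% interval ran from 0.973-fold to 1.35-fold. The value was 0.10 without 0 h replicate 3. CDKN1A (chromosome 6 from 36676460 to 36687339) shares 146 bases of exon with the divergent noncoding gene DINOL, which had 0 reads. GADD45A, a stress protein that inhibits the CDK1 kinase, was at 116, 147 and 138 CPM at 0 h and at 104, 117 and 102 CPM at 24 h. These libraries overlapped through 0 h replicate 1, and GADD45A was not called, at -0.31 ± 0.11 (adjusted p = 0.143). BTG2, an antiproliferative cofactor of RNA decay, was the lowest arrest gene, with 20, 23 and 12 reads at 0 h and 23, 20 and 24 at 24 h. Its interval, from 0.594-fold to 1.51-fold, was the widest of this group.

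**Figure D2:**
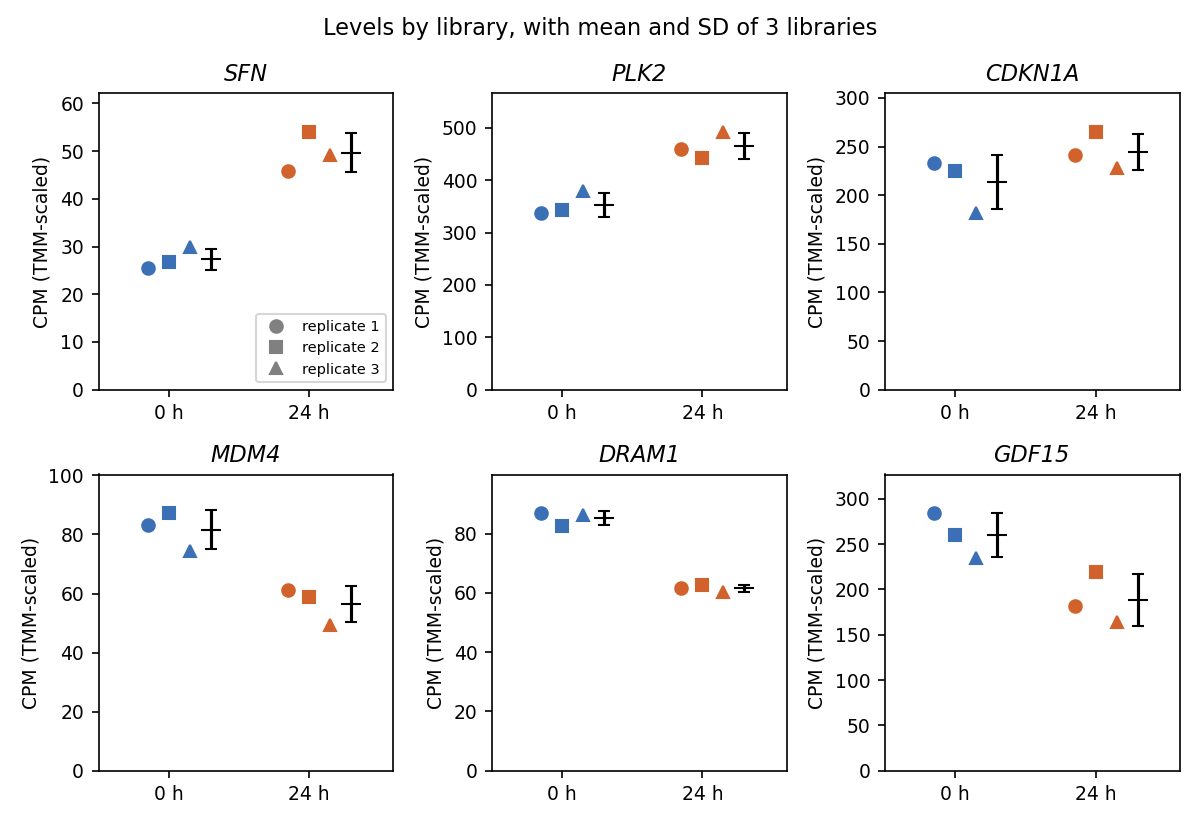
TMM-scaled CPM of the 5 called members and of CDKN1A in each library, 0 h in blue and 24 h in orange, with a marker for each replicate number and the mean with its SD (n = 3) in black. The groups do not overlap for SFN, PLK2, MDM4, DRAM1 and GDF15, whereas those of CDKN1A do.

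The sequence around transcript starts of these genes was searched for the p53 half-site, the decamer of which p53 binds pairs. RefSeq promoter windows on GRCh38.p14, from 250 bases before to 50 after a transcript start, were available for 25 of the 31 symbols (36 windows). A half-site without mismatch, which reads alike on both strands, was present in 5 of these windows (13.9%), against 6.63% of all 35116 windows. A pair of half-sites no more than 13 bases apart was in 0 of the 36 windows, and in 10 of all windows. The matches are printed because they are the only ones among the members, with the half-site in capitals, 5′ to 3′ on the gene's strand, and up to 10 bases on each side that lie before the start.
PLK2: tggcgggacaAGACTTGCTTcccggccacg
FAS: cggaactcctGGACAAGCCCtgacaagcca
EI24: cgtgcggcccGGGCATGCCC
AEN: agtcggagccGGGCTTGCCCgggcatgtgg
FDXR: gggcaggagcGGGCTTGCCCt
The printed stretches lie at chr5:58460199-58460228 (minus strand) for PLK2, chr10:88991299-88991328 (plus) for FAS, chr11:125569457-125569476 (plus) for EI24, chr15:88621296-88621325 (plus) for AEN and chr17:74872995-74873015 (minus) for FDXR. The half-sites begin 132, 122, 10, 34 and 11 bases before the start of their windows' transcripts. All 5 stretches lie within the GENCODE 29 spans of their genes, which begin before these RefSeq starts. A match describes these letters only, and sites outside the windows were not searched. Of these 5 genes PLK2 was called, and FAS, EI24, AEN and FDXR were not.

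Among genes that feed back on p53, 1 of 6 fell and 0 rose. MDM4 encodes a relative of MDM2 that binds p53 and blocks its activity. It was at 83.3, 87.2 and 74.3 CPM at 0 h and at 61.0, 58.9 and 49.4 CPM at 24 h. All 24 h libraries were below all 0 h libraries, on the FPKM scale as well. The log2 fold change was -0.53 ± 0.11 (edgeR, Benjamini-Hochberg adjusted p = 0.0189), with an interval from 0.584-fold to 0.818-fold. The call was lost without 0 h replicate 2 (-0.49, adjusted p = 0.123), without 24 h replicate 2 (-0.56, adjusted p = 0.0918) and without 24 h replicate 3 (-0.45, adjusted p = 0.0908). MDM4 lies on chromosome 1 from 204516379 to 204558120 in GENCODE 29, and its exons overlap those of no other annotated gene.

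MDM2, the ligase that p53 induces and that degrades p53, was at 68.2, 70.6 and 73.6 CPM at 0 h and at 62.8, 59.3 and 68.0 CPM at 24 h. Each 24 h library was below each 0 h library in CPM, by a narrow margin, but the groups overlapped in FPKM. The log2 fold change was -0.16 ± 0.10 and was not called (adjusted p = 0.454 in edgeR), with an interval from 0.768-fold to 1.04-fold. MDM2 shares 133 bases of its exons with the carboxypeptidase gene CPM on the other strand (2657 reads), and it also overlaps an antisense gene (5 reads) and a pseudogene (0 reads). Whether the counting used strand is not given in the sources used here.

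The other feedback genes were not called. CCNG1, cyclin G1, which recruits a phosphatase to MDM2, had the highest FPKM of the group (13.5 ± 3.61 at 0 h, SD, n = 3). In CPM it was at 44.3, 57.0 and 75.9 at 0 h and at 59.7, 57.2 and 67.5 at 24 h, so the 0 h libraries spanned the 24 h libraries. ZMAT3, an RNA-binding zinc finger protein, had the lowest FPKM, at 2.03 ± 0.444 at 0 h. It was at 28.5, 31.6 and 42.9 CPM at 0 h, 0 h replicate 3 being the high one, and at 30.7, 28.9 and 29.3 CPM at 24 h. The phosphatase PPM1D (WIP1), which turns off the damage kinases, was at 0.07 ± 0.15 and FBXW7, a substrate receptor of ubiquitin ligases, at -0.02 ± 0.12 on the log2 scale.

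Neither edgeR nor DESeq2 called any of the 5 genes grouped as death receptors (0 each), which include the scaffold PIDD1. For 2 of the 5, in opposite directions, the unadjusted edgeR p was nonetheless below 0.05. TNFRSF10B (DR5) and TNFRSF10A (DR4) are the receptors through which the ligand TRAIL starts apoptosis. TNFRSF10B was at 238, 180.1 and 166 CPM at 0 h and at 159.5, 168 and 151 CPM at 24 h. It overlapped because 24 h replicate 2 exceeded 0 h replicate 3, and 0 h replicate 1 was far above the rest. Its log2 fold change was -0.29 ± 0.12 (edgeR adjusted p = 0.229), and the value depended on single 0 h libraries. Without 0 h replicate 1 it was -0.12 (adjusted p = 0.649), and without 0 h replicate 3 it was -0.39 and called (adjusted p = 0.0111).

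TNFRSF10A was at 24.5, 22.3 and 23.7 CPM at 0 h and at 28.0, 28.5 and 29.5 CPM at 24 h. The groups did not overlap, and the log2 fold change of 0.29 ± 0.13 was not called (edgeR adjusted p = 0.235). TNFRSF10A shares 266 bases of exon with AC100861.1 on the other strand (114 reads over all libraries). TNFRSF10D, a decoy receptor for TRAIL that lacks a working death domain, was at 0.12 ± 0.10, and FAS, the receptor for FAS ligand, at 0.26 ± 0.17. FAS was at 20.1, 27.6 and 29.1 CPM at 0 h and at 23.6, 33.3 and 35.0 CPM at 24 h, the replicates numbered 1 being the low ones in both groups. The TNFRSF10 genes are paralogs that lie together on chromosome 8, so their reads may have been split or pooled.

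PIDD1, a death-domain scaffold that activates caspase-2, was the lowest of this group, with 23, 29 and 17 reads at 0 h and 35, 49 and 30 at 24 h. Its log2 fold change was 0.36 ± 0.29, with an interval from 0.838-fold to 1.97-fold. PIDD1 shares 107 bases of exon with RPLP2, a ribosomal protein gene on the other strand that had 10313 reads over all libraries, so its values are uncertain.

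The 8 genes of apoptosis and survival gave 0 calls in edgeR and 0 in DESeq2, but 3 of them, all higher at 24 h, were below an unadjusted p of 0.05. PERP, a membrane protein of desmosomes and apoptosis, was at 60.0, 49.8 and 54.9 CPM at 0 h and at 69.8, 66.1 and 79.5 CPM at 24 h. The groups did not overlap, but the log2 fold change of 0.39 ± 0.11 was not called (edgeR adjusted p = 0.0846). PERP was called without 0 h replicate 3 (adjusted p = 0.0248). PHLDA3, an inhibitor of the kinase AKT, was at 35.9, 35.1 and 35.3 CPM at 0 h and at 40.9, 52.1 and 43.6 CPM at 24 h, without overlap. Its log2 fold change was 0.36 ± 0.12 (edgeR adjusted p = 0.123), and 24 h replicate 2 was the highest library. PHLDA3 shares 598 bases of exon with a noncoding gene on the same strand (AC096677.2, 40 reads over all libraries).

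TP53INP1, a stress protein that promotes p53 activity and autophagy, had the lowest FPKM of these 8 genes. It was at 11.8, 12.5 and 14.3 CPM at 0 h and at 15.7, 16.6 and 17.3 CPM at 24 h, without overlap, and was not called at 0.36 ± 0.16 (edgeR adjusted p = 0.234). EI24, a protein of the endoplasmic reticulum, had the highest FPKM, at 95.1, 92.7 and 102 CPM at 0 h and 100.3, 101 and 106 CPM at 24 h. Its groups overlapped, with a log2 fold change of 0.08 ± 0.10. AEN, an apoptosis-enhancing nuclease, was at 0.17 ± 0.12, TRIAP1, an inhibitor of apoptosis, at 0.05 ± 0.17, NINJ1, which ruptures the membrane of dying cells, at -0.03 ± 0.13 and SUSD6, a membrane protein, at -0.13 ± 0.14.

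Of the targets in metabolism, mitochondria and autophagy, 4 of 5 were tested, and 1 fell. DRAM1 encodes a lysosomal membrane protein that p53 uses to induce autophagy. It was at 86.9, 82.5 and 86.3 CPM at 0 h and at 61.5, 62.7 and 60.3 CPM at 24 h. In CPM the libraries of each group lay close together and well apart from the other group. In FPKM they did not overlap either, but the 24 h libraries spread more, from 10.8 to 12.1, against 13.3 to 13.9 at 0 h. The log2 fold change was -0.47 ± 0.10 (edgeR, Benjamini-Hochberg adjusted p = 0.0164), with an interval from 0.624-fold to 0.834-fold. With any 1 library left out it ran from -0.50 to -0.46. The call was kept without 0 h replicate 1 or 0 h replicate 3, and lost without 0 h replicate 2 (adjusted p = 0.0701) or 24 h replicate 1, 2 or 3 (0.0652, 0.0943 and 0.0691). DRAM1 spans chromosome 12 from 101877351 to 102012130, and the one gene its exons overlap, an antisense RNA, had 0 reads.

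TP53I3 (PIG3), a quinone oxidoreductase, was at 18.5, 14.1 and 18.0 CPM at 0 h and at 21.1, 22.9 and 20.2 CPM at 24 h. It did not overlap and was not called, at 0.34 ± 0.15 (edgeR adjusted p = 0.246). TIGAR, a phosphatase that lowers glycolysis, was at -0.01 ± 0.14, with an interval from 0.814-fold to 1.22-fold. TIGAR shares 1711 bases, 42.6% of its exons, with AC008012.1, a protein-coding gene on the same strand with 0 reads counted. How shared reads were counted is not given in the sources used here. FDXR, the mitochondrial ferredoxin reductase, had 25, 12 and 22 reads at 0 h and 20, 34 and 39 at 24 h, and its interval was wide, from 0.777-fold to 1.91-fold. SPATA18, which clears damaged mitochondria, had 0 reads in 5 libraries and 1 read in 24 h replicate 2. At these totals, a count of 0 allows up to 3 reads, or 0.414 to 0.597 CPM depending on the library, for counting error only.

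GDF15, a stress cytokine of the TGF-beta family that tubule cells secrete, fell. It was at 284, 259.7 and 235 CPM at 0 h and at 181, 219 and 164 CPM at 24 h. The groups did not overlap in CPM, but in FPKM 24 h replicate 2, at 125, exceeded 0 h replicates 2 and 3, at 123 and 110.0. The log2 fold change was -0.46 ± 0.12 (edgeR, Benjamini-Hochberg adjusted p = 0.0452). It was kept without 0 h replicate 3 or 24 h replicate 2, and with any other library left out the adjusted p ran from 0.121 to 0.171. GDF15 lies on chromosome 19 from 18374731 to 18389176. GDF15 was also the one called member that upper-quartile scaling moved past the threshold (adjusted p = 0.0529).

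Levels between genes were compared per length, in FPKM. At 0 h the members spanned from SPATA18, at 0 in all 3 libraries, to GDF15 at 122 ± 11.4 FPKM (SD, n = 3). Next came PLK2 (67.2 ± 4.26), GADD45A (50.3 ± 6.31) and CDKN1A (47.9 ± 6.36), of which the last 2 did not differ beyond their spread. The arrest genes had the highest median (29.8 FPKM), followed by apoptosis and survival (7.80), death receptors with PIDD1 (5.34), metabolism and autophagy (4.68) and feedback (3.25). CDKN1A lay above 95.1% of the genes tested and MDM2 above 41.6%. BTG2, PIDD1, FDXR and SPATA18 were below 1 FPKM at 0 h. Across the 30 tested members, the FPKM at 0 h and the log2 fold change had a Spearman's rho of -0.08, given as a description of genes that share the same 6 libraries.

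**Figure D3:**
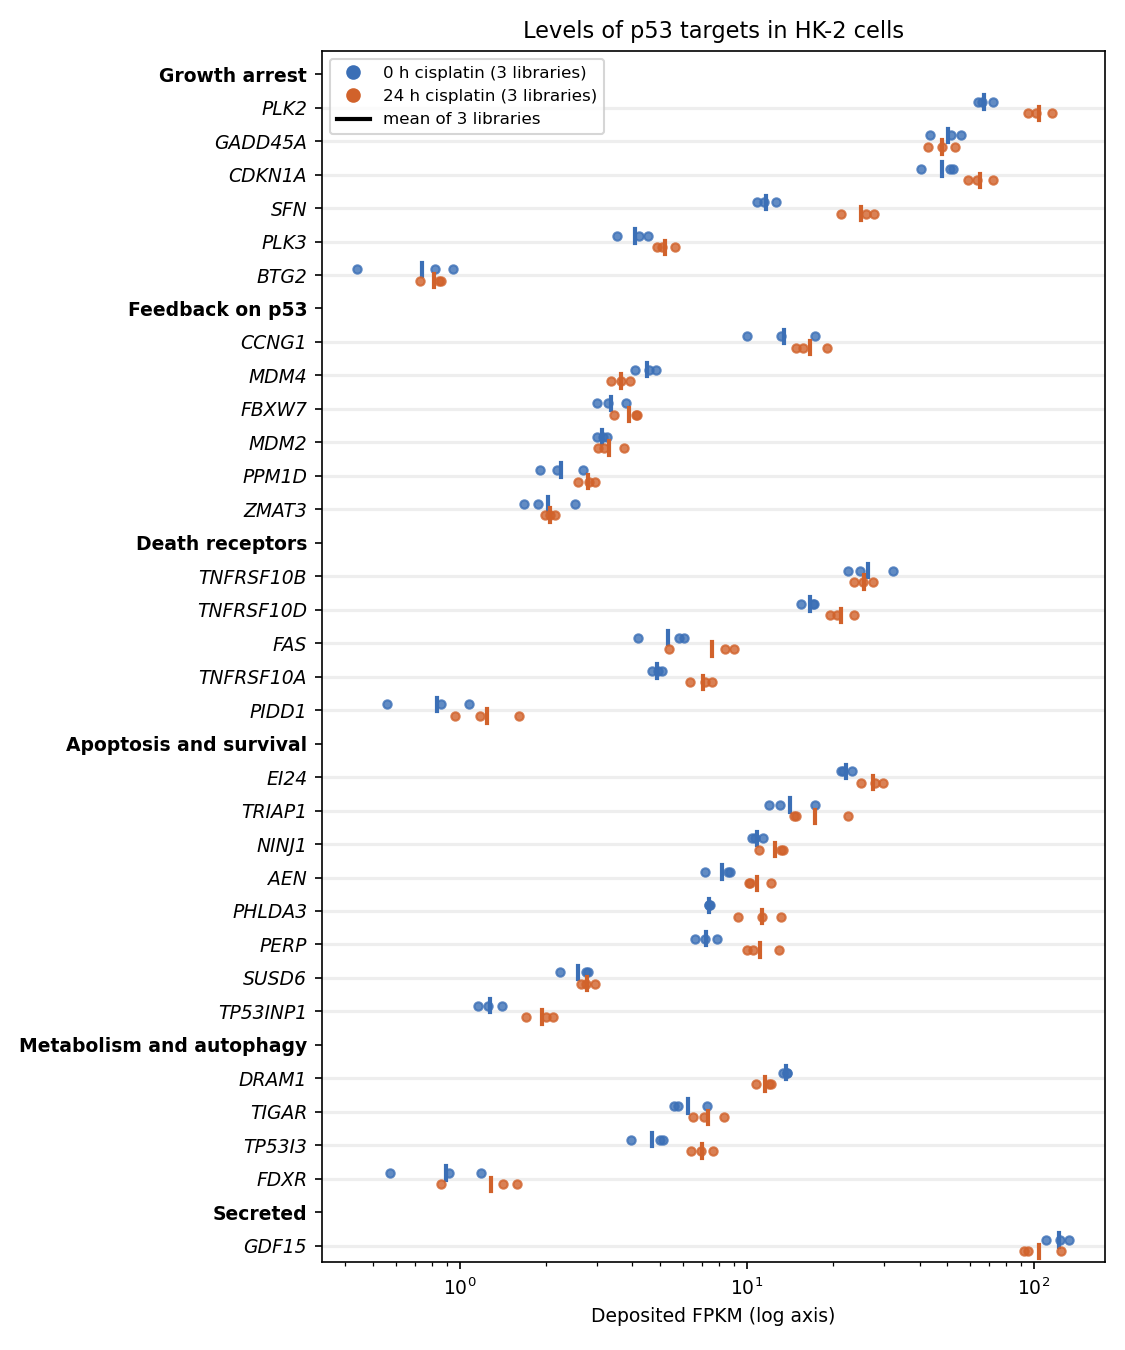
Deposited FPKM (log axis) of 30 members in each library, by role and in order of the 0 h mean, with 0 h in blue, 24 h in orange and a bar at each mean of 3 libraries. SPATA18, at 0 in 5 libraries, is left out. On this scale the 24 h mean lies to the left of the 0 h mean for GADD45A, MDM4, TNFRSF10B, DRAM1 and GDF15 and to the right for the other members drawn.

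The scaling of the libraries moved every member. When libraries were scaled by the totals behind the deposited FPKM in place of TMM, the median of all tested genes shifted by 0.24 on the log2 scale, and 2354 genes rose and 195 fell, against 116 and 278. With this scaling 11 members rose and 0 fell, against 17.6% and 1.46% of all genes tested. SFN (1.10 ± 0.15) and PLK2 (0.64 ± 0.13) stayed called, and PERP, PHLDA3, TP53INP1, TP53I3, TNFRSF10A, FAS, CDKN1A, AEN and TNFRSF10D were added, with values from 0.36 to 0.63. MDM4, DRAM1 and GDF15 stayed below 0, at -0.30, -0.23 and -0.23, and were no longer called. MDM2 changed sign, to 0.08. A change below or above 0 is thus one against the median gene. Limma on log2(FPKM + 1) gave 8 members higher and 0 lower (12.4% and 1.03% of all genes), and DESeq2, with its own scaling, gave the same 2 and 3 as edgeR (0.904% and 1.9%). Without 0 h replicate 3, TMM scaling gave 3 rises, which added PERP, and 4 falls, which added TNFRSF10B, against 4.18% and 6.72% of all genes.

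**Figure D4:**
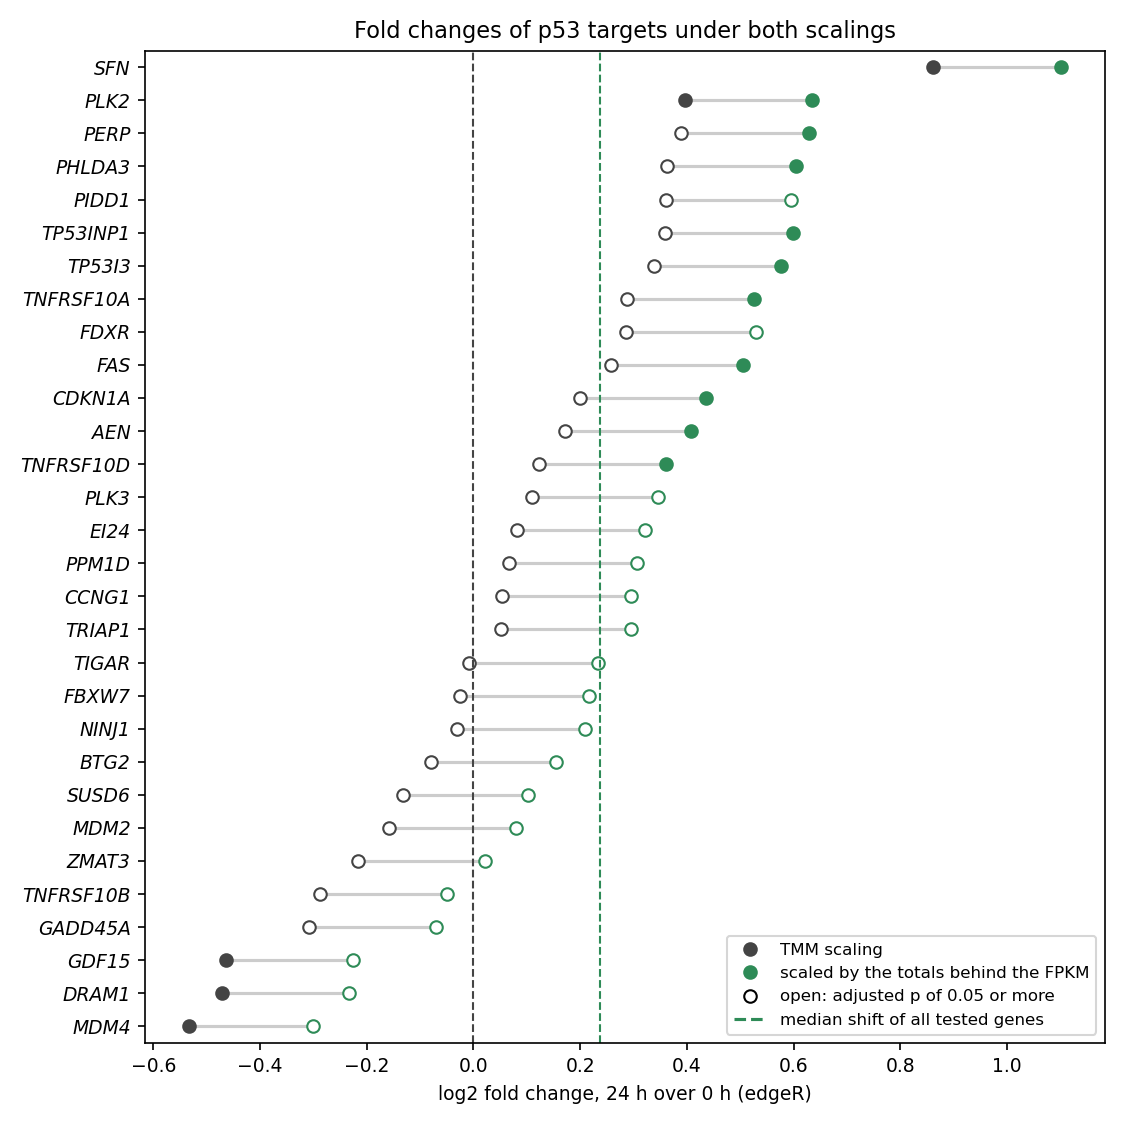
Log2 fold changes of the 30 tested members with TMM scaling (grey) and with the totals behind the FPKM (green). Filled points passed an adjusted p of 0.05, and the green dashed line marks the shift of 0.24 in the median of all tested genes. Each of the 30 green points lies to the right of its grey point, and SFN stands to the right of all other members.

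Other genes of the pathway were read from lists of non-members. Of 44 further p53 targets tested (48 in the table), 0 rose and 2 fell by edgeR, with a median of 0.04. SESN2, a stress sensor upstream of mTOR, fell by 0.77 ± 0.15 on the log2 scale, from 85.5, 86.8 and 58.3 CPM at 0 h to 46.8, 51.2 and 37.3 CPM at 24 h. NUPR1, a stress-induced chromatin protein, fell by 1.86 ± 0.39, from 3.99, 5.10 and 2.47 CPM to 1.32, 0.868 and 0.960 CPM. Both are also known as targets of the integrated stress response. The call of SESN2 did not hold with 0 h replicate 2 or 24 h replicate 3 left out (adjusted p = 0.0951 and 0.0544), nor that of NUPR1 without 0 h replicate 2 or 24 h replicate 2 or 3 (0.129, 0.124 and 0.0661). The pro-apoptotic targets PMAIP1 (NOXA), BBC3 (PUMA) and BAX, picked after their values were seen, were at 0.03 ± 0.11, 0.05 ± 0.24 and 0.25 ± 0.13 and were not called. Scaled by the FPKM totals, 9 of the 44 rose, near the 17.6% of all genes, and 2 fell, against 1.46%. Without 0 h replicate 3, 3 rose and 4 fell, against 4.18% and 6.72% of all genes.

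Of 33 regulators and partners of p53 tested, 0 rose and 1 fell by edgeR, with a median of -0.07. ATM, the kinase that responds to DNA breaks, was at 83.9, 80.8 and 85.8 CPM at 0 h and at 65.5, 56.6 and 66.1 CPM at 24 h, without overlap. Its log2 fold change was -0.41 ± 0.10 (edgeR adjusted p = 0.0443), kept only without 0 h replicate 3, with adjusted p from 0.0846 to 0.255 when any other library was left out. UBE3A, the ligase that E6 uses, is given outside the naming rule and was at 0.07 ± 0.11. Scaled by the FPKM totals, 5 of the 33 rose and 0 fell, near the 17.6% and 1.46% of all genes. Without 0 h replicate 3, 0 rose and 4 fell, against 4.18% and 6.72% of all genes.

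Genes that p53 lowers through p21 and the DREAM repressor complex were the last list. Of 16 tested, 0 rose and 4 fell, with a median of -0.25. The mitotic cyclin gene CCNB1 was at -0.82 ± 0.10 and the mitotic kinase PLK1 at -0.79 ± 0.10, and both were called without each library in turn. CDC20, an activator of the anaphase-promoting complex (-0.43 ± 0.11), was kept only without 0 h replicate 3, and CCNB2 (-0.56 ± 0.14) was lost without each library in turn. In all, 14 of the 16 were below 0, against 6732 of 13389 genes tested. The 2 above 0 were CDC25A, at 0.33 ± 0.10 (edgeR adjusted p = 0.0935), and MYBL2, at 0.16 ± 0.10 (edgeR adjusted p = 0.432). Neither was called, though for both every 24 h library lay above every 0 h library in CPM. Scaled by the FPKM totals, 2 of the 16 rose and 2 fell, against 17.6% and 1.46% of all genes. The median was then close to 0 (-0.0019), below the 0.24 of all genes. Without 0 h replicate 3, 1 rose and 4 fell, against 4.18% and 6.72% of all genes.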

How the data were processed

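Ribosome-depleted, directional libraries of total RNA were sequenced as paired ends, per the labels' protocols. Values came from a deposited table of read counts (28565 genes) and a deposited table of FPKM (28561 genes, rounded to hundredths), both made by the authors with 1 column per library. The tools and build were TopHat2, bcl2fastq, edgeR and GRCh38, per the submitters' processing notes. The sources used here do not give their roles, the counter, the annotation or whether counting used strand.

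Differences between 24 h and 0 h (3 libraries each) were tested in R 4.3.3 with edgeR 4.0.16 (quasi-likelihood) on TMM-scaled counts after filterByExpr, without covariates. Benjamini-Hochberg adjustment ran across 13389 genes, and calls needed an adjusted p under 0.05. Limma was version 3.58.1. The code was tested on simulated data. Errors of fold changes are standard errors of the model, and counting error is included. Reads were counted without molecular identifiers. The labels do not say whether libraries came from separate cultures, and the series' design text speaks of 2 biological replicates, so p-values measure only the spread between these libraries.

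Members were matched by symbol, and all 31 had a GENCODE 29 record (26 with the same version). Members, lists and the naming rule were chosen with earlier results of these data known. All members are named. Called members, those with an unadjusted p under 0.05, CDKN1A, MDM2 and the highest and lowest of each role by FPKM are given by library. In other lists, called genes or the 2 smallest p-values are named. PMAIP1, BBC3, BAX, UBE3A, CDC25A and MYBL2 are given outside this rule. One further gene that this rule names is not reported here. FPKM totals were compared between libraries through counts divided by FPKM, over 3570 genes with more than 300 counts in each library. DESeq2 1.42.0, other scalings and filters, limma, a replicate block and fits without each library were alternatives.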

Additional observations from a re-analysis of the deposited data

How the results depend on the processing

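The 30 tested members were refitted under 17 alternatives each. Of 510 values, 418 kept their direction and side of the threshold, 26 lost and 27 gained a call, and 39 changed sign, in 10 members that were not called in either fit. Over all genes, rises were 2354 with the FPKM totals, 345 with no filter on low counts, 1657 and 1632 by limma on log2(FPKM + 1) and log2(FPKM + 0.1), 739 with the replicate block and 21 to 574 without 1 library. Falls were 138 and 136 by the limma fits, 959 with the replicate block and 92 to 923 without 1 library. Among members, rises were 11 with the FPKM totals, 8 and 7 by limma and 1 to 3 without 1 library, and falls were 0 in these 3 FPKM-based fits and 0 to 4 without 1 library. Without 0 h replicate 2 or 24 h replicate 3, 1 member rose (SFN) and 0 fell. In deposited FPKM, 12 of the 30 members lay higher and 2 lower at 24 h without overlap, against 4463 and 403 of the 13389 genes tested. In CPM without 1 library, 7 to 11 members lay higher and 4 to 7 lower. With fewer libraries in a group, non-overlap is easier for every gene, and the share of all genes was not computed. These last counts therefore say nothing particular to the members.

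Deviations from the group means correlated at 0.24, -0.02 and 0.42 between same-numbered libraries, and from -0.37 to 0.23 between libraries of unlike number. Whether the replicate numbers pair the libraries cannot be told from these values. With the replicate block 4 members rose and 5 fell, PERP, PHLDA3, GADD45A and TNFRSF10B being added.

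Sign changes with the FPKM totals and the limma fits (pseudocounts 1 and 0.1) were to 0.080, 0.057 and 0.072 for MDM2, 0.16, 0.073 and 0.18 for BTG2, 0.022, 0.027 and 0.044 for ZMAT3, 0.23, 0.21 and 0.23 for TIGAR, 0.10, 0.077 and 0.10 for SUSD6, 0.21, 0.19 and 0.20 for NINJ1 and 0.22, 0.17 and 0.21 for FBXW7. With no filter, TIGAR was at 0.040, NINJ1 at 0.020 and FBXW7 at 0.024, and TIGAR was at 0.0027 with total counts. Without 1 library, BTG2 ran from -0.35 to 0.13, CCNG1 from -0.11 to 0.28, FBXW7 from -0.11 to 0.082, NINJ1 from -0.050 to 0.0033, PPM1D from -0.036 to 0.22, TIGAR from -0.082 to 0.13 and TRIAP1 from -0.15 to 0.24. The cause of these changes was not tested beyond the shift of the median gene that the FPKM totals make. Depth limits BTG2, PIDD1, FDXR and SPATA18.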

Other observations

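Ratios of the reads of 2 members within a library do not depend on library scaling. These pairs were chosen after their values were seen, and the ratios are given with no test. MDM4 had 1.22, 1.24 and 1.01 reads per MDM2 read at 0 h and 0.971, 0.993 and 0.726 at 24 h, so the 24 h libraries were all lower. TNFRSF10A had 0.103, 0.124 and 0.143 reads per TNFRSF10B read at 0 h and 0.176, 0.170 and 0.195 at 24 h, all higher. SFN had 0.221, 0.182 and 0.217 reads per GADD45A read at 0 h and 0.441, 0.463 and 0.481 at 24 h. Per CDKN1A read, SFN had 0.109, 0.119 and 0.164 at 0 h and 0.190, 0.204 and 0.216 at 24 h. The groups did not overlap in any of these 4 ratios, while PLK2 per PLK3 read overlapped, at 18.0, 17.3 and 24.2 against 23.2, 21.5 and 27.2. A ratio shows unequal change, and not which of the 2 genes moved.

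Members with a longer genomic span tended to have lower fold changes. Across the 30 tested members, which span 1320 bases (SFN) to 215520 bases (FBXW7), Spearman's rho between span in GENCODE 29 and log2 fold change was -0.43. Across the 13316 tested genes with a span it was -0.23. Both are descriptions across genes that share the same 6 libraries.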
